A study of Homo sapiens with 2 samples.

Results

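The 10 genes described here are the glutathione peroxidases GPX1, GPX2, GPX3, GPX4, GPX7 and GPX8, the catalase gene CAT, the superoxide dismutases SOD1 and SOD2, and SELENOP, which encodes the selenium carrier selenoprotein P. They were chosen by name as enzymes that remove peroxide and superoxide, together with the selenium carrier. The ratios between the same libraries were already known, so every ratio below is a description and no test was made. All 10 were found, out of 62571 rows in the table. They were measured by poly(A) RNA sequencing in HuH6, a human hepatoblastoma cell line. One library held the parental cells (HuH6_WT) and 1 held HuH6 cells in which CRISPR/Cas9 was used to knock out the survival kinase gene PIM3 (PIM3_KO). PIM3 itself stood at 34.2 FPKM (fragments per kilobase of transcript, scaled to the library) in HuH6_WT against 14.0 FPKM in PIM3_KO; an edited gene can still be transcribed, so this level is a weak check of the edit. Neither culture was treated, and whether the edited cells came from 1 clone is not given in the sources used here. With 1 library per group, clone, culture and PIM3 loss cannot be told apart, and in bulk RNA fewer expressing cells and less RNA per cell cannot be told apart either.

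Superoxide dismutases turn superoxide into oxygen and hydrogen peroxide, which catalase splits in peroxisomes and which glutathione peroxidases reduce to water with glutathione. GPX1 to GPX4 carry selenocysteine at the active site, an amino acid inserted at a UGA codon that would otherwise end translation. GPX7 and GPX8 of the endoplasmic reticulum carry cysteine there. The liver is the main source of circulating selenoprotein P, which delivers selenium to other tissues.

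The codon at the active site separates these enzymes in the annotated transcripts, so it is shown first. Each line gives 24 bases on either side of the codon, 5′ to 3′, from GENCODE release 29 transcripts on GRCh38. Capitals mark the selenocysteine codon TGA or the cysteine codon TGC at the matching place, and for SELENOP the first of its 10 annotated selenocysteine codons.
GPX1: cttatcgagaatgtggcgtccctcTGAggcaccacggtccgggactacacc
GPX2: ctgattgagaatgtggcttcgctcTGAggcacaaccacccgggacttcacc
GPX3: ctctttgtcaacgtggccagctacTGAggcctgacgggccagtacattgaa
GPX4: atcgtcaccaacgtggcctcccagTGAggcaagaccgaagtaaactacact
GPX7: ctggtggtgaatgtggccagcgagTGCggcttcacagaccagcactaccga
GPX8: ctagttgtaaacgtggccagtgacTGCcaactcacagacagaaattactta
SELENOP: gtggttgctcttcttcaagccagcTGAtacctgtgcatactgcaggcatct
The GPX1 codon lies at chr3:49358132-49358134 on the minus strand, in the coding part of the transcript, and the GPX4 codon at chr19:1105403-1105405 on the plus strand. The GPX1 and GPX2 windows matched at 42 of 51 bases, against 31 of 51 for GPX1 and GPX4 and 24 of 51 for GPX1 and GPX8. GPX1 and GPX2, the closest pair here, had log2 ratios of -5.01 and 0.25 (-0.21 under TPM), as described next.

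GPX1 was nearly lost from the PIM3_KO library, while GPX4 and SOD1 were about 2-fold higher there and the other 7 genes lay within 2-fold. The ratio used is log2 of FPKM + 1 in PIM3_KO over HuH6_WT. A gene was called when it differed at least 2-fold on that scale. In all, 2 of the 10 were called higher and 1 lower, among 11253 genes of which 6.89% were called higher and 4.59% lower. The median log2 ratio of the 10 was 0.08, against 0.01 over all genes tested. Since the choice of the 10 used these ratios, nothing is read from the counts.

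**Figure D1:**
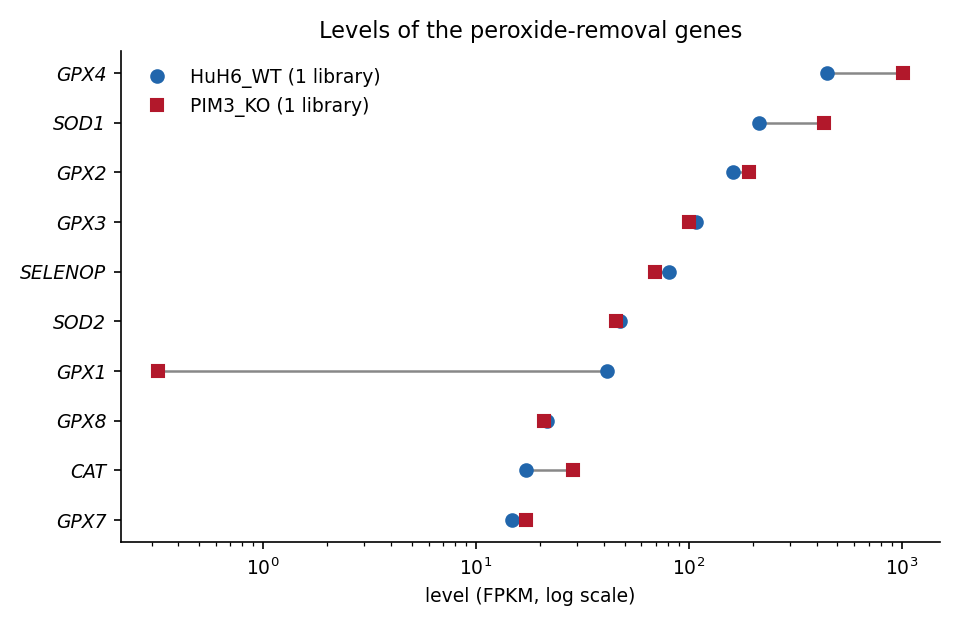
Level of each gene in FPKM on a log axis, with a circle for the HuH6_WT library and a square for the PIM3_KO library, joined by a line. GPX1 went from 41.5 to 0.322 FPKM, GPX4 and SOD1 lay to the right in PIM3_KO, and most others nearly coincided.

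GPX1, the widely expressed peroxidase of cytosol and mitochondria, stood at 41.5 FPKM in HuH6_WT against 0.322 FPKM in PIM3_KO. Its log2 ratio was -5.01, the third lowest of the genes tested. The PIM3_KO level was 0.777% of the HuH6_WT level, with exact 95% bounds of 0.320% and 1.65% (roughly 7 reads against 1118). Such intervals cover counting error only, not the spread between cultures. In FPKM, HuH6_WT was 129-fold higher, and the interval ran from 60.6-fold to 312-fold. In HuH6_WT the gene was at or above 77.8% of genes tested, and in PIM3_KO at or above 0.435%.

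The gene (ENSG00000233276.4) lies at chr3:49357171-49358600 on the minus strand and is annotated as a polymorphic pseudogene with protein-coding transcripts. The processed copy GPX1P1 is 98.2% identical to the GPX1 transcript over 606 bp, and 137 of the 1077 windows of 75 bases in GPX1, the read length, also occur in it. GPX1P1 measured 0.261 FPKM in HuH6_WT, about 3 reads, and was listed at 0 in PIM3_KO. GPX1P2, 95.3% identical, was listed at 0 in each library. Neither copy was higher where GPX1 was lower, but how the authors treated reads with several matches is not given in the sources used here.

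Rows next to GPX1 that held signal were also lower in PIM3_KO, though far less. RHOA, a small GTPase gene that lies 544 bp away on the same strand, stood at 408 FPKM in HuH6_WT against 259 FPKM in PIM3_KO, a log2 ratio of -0.65. TCTA measured 8.57 and 3.76 FPKM, with a ratio of -1.01. The row that joins USP4, a ubiquitin protease gene, with C3orf62 measured 17.6 and 6.78 FPKM, with a ratio of -1.25. The row that joins AMT with NICN1 measured 59.6 and 39.8 FPKM, and CCDC36 was listed at 0. Of 39 measured coding genes within 1000 kb of GPX1 with a row of their own, 29 had negative ratios, against 49.0% of all genes tested. Of these 39, 3 were called lower (7.69%, against 4.59% of all genes) and 1 higher (2.56%, against 6.89%). The median was -0.20 and the lowest ratio -1.30, against -5.01 for GPX1. Whether the region bears on GPX1 was not tested.

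**Figure D2:**
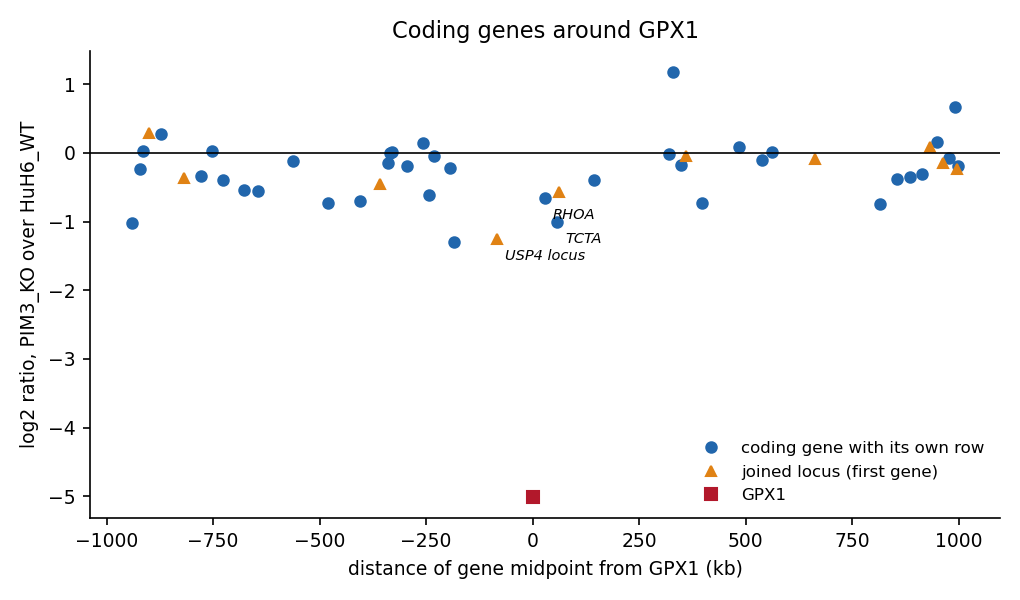
Log2 ratio of FPKM + 1, PIM3_KO over HuH6_WT, of coding genes by the distance of their midpoint from GPX1 in kb. Circles are genes with a row of their own and triangles are rows that join several genes. The square is GPX1 at -5.01, below all others shown. The nearest rows with signal lie between -1.25 and -0.57. Only rows with a mean of at least 1 FPKM are drawn, so CCDC36, listed at 0 in each library, is not shown.

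GPX4 (ENSG00000167468.16, chr19:1103926-1106791, plus strand), which reduces lipid hydroperoxides within membranes and restrains ferroptosis, was the most abundant of the 10 in either library. It stood at 446 FPKM in HuH6_WT against 1011 FPKM in PIM3_KO, a 2.27-fold ratio with an interval of 2.21 to 2.33 (about 9090 and 16156 reads). The log2 ratio was 1.18, higher than that of 95.6% of genes tested. It was 0.72 after both libraries were rescaled to equal totals (TPM), and 0.76 after correction for transcript length, so under either the gene was higher but not called. Among 48 measured coding genes within 1000 kb of GPX4 on chromosome 19, 14 were called higher, or 29.2% against 6.89% of all genes tested, and 0 lower, against 4.59%. Their median was 0.47, against 0.01 over all genes tested. Under TPM it was 0.03, against -0.40 over all genes, and after the length correction it was 0.47.

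GPX2 (ENSG00000176153.11, chr14:64939152-64942905, minus strand), the peroxidase best known from the gut lining, stood at 162 FPKM in HuH6_WT against 192 FPKM in PIM3_KO, a 1.19-fold ratio. Its log2 ratio of 0.25 turned to -0.21 under TPM and to -0.15 after the length correction, so no direction is given. All 3754 bp of GPX2 overlap CHURC1 on the opposite strand, whose joined row measured 81.4 and 124 FPKM. Whether reads were counted by strand was not stated in the labels.

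GPX3 (ENSG00000211445.11, chr5:151020438-151028993, plus strand), the secreted peroxidase of plasma, had 2 rows. The main one stood at 109 FPKM in HuH6_WT against 100.5 FPKM in PIM3_KO, and the other was listed at 0 and 0.194 FPKM. The log2 ratio of the main row was -0.11, which the counting interval of -0.18 to -0.04 placed below 0. Under TPM it was -0.57.

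Within a library, shares of the family do not depend on the scaling between libraries. They do keep the trend of the ratios with transcript length given below, and GPX4 has 919 bp against 1636 bp for GPX3. GPX4 held 56.2% of the summed FPKM of the 6 peroxidases in HuH6_WT and 75.3% in PIM3_KO. GPX1 held 5.22% and 0.0240%, GPX2 20.4% and 14.3%, and GPX3 13.7% and 7.49%. GPX4 measured 10.8 times GPX1 in HuH6_WT and about 3138 times GPX1 in PIM3_KO, where the roughly 7 reads of GPX1 leave an exact 95% interval of 1523 to 7807 times. The remaining family members GPX5 and GPX6 were listed at 0 in each of their 2 rows in both libraries.

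GPX7 and GPX8, which use hydrogen peroxide to oxidise protein disulfide isomerases, were the peroxidases of lowest level in HuH6_WT. GPX7 (ENSG00000116157.5, chr1:52602372-52609051, plus strand) stood at 14.8 FPKM in HuH6_WT against 17.2 FPKM in PIM3_KO, and its log2 ratio of 0.21 became -0.23 under TPM and -0.14 after the length correction. GPX8 (ENSG00000164294.13, chr5:55160118-55167071, plus strand) measured 21.7 and 21.0 FPKM, with a ratio of -0.04 and a counting interval of -0.20 to 0.11 that includes 0. Under TPM the ratio of GPX8 was -0.49.

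CAT (ENSG00000121691.5, chr11:34438925-34472062, plus strand), whose product works in peroxisomes, stood at 17.1 FPKM in HuH6_WT against 28.5 FPKM in PIM3_KO, a 1.66-fold ratio with an interval of 1.53 to 1.81. Its log2 ratio of 0.70 was 0.26 under TPM and 0.64 after the length correction, positive but not called under each. Its place in the order of the 10 levels moved from 9 in HuH6_WT to 7 in PIM3_KO.

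SOD1 (ENSG00000142168.14, chr21:31659622-31668931, plus strand), the copper and zinc dismutase of the cytosol, stood at 213 FPKM in HuH6_WT against 431 FPKM in PIM3_KO. The ratio was 2.02-fold with an interval of 1.95 to 2.10, so it sat on the 2-fold threshold. The log2 ratio was 1.01, against 0.55 under TPM and 0.61 after the length correction. CCS, the chaperone that loads copper into SOD1, measured 34.9 and 74.7 FPKM, a log2 ratio of 1.08 (0.62 under TPM, 0.79 after the length correction). SOD1 was 6.10 times CCS in HuH6_WT and 5.77 times in PIM3_KO. Of 4 coding genes measured within 1000 kb of SOD1, 0 were called and the median was -0.44. The antisense gene AP000254.1, which overlaps SOD1 by 520 bp, was listed at 0 and 2.34 FPKM.

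SOD2 (ENSG00000112096.17, chr6:159669057-159745186, minus strand), the manganese dismutase of mitochondria, stood at 47.6 FPKM in HuH6_WT against 45.5 FPKM in PIM3_KO. The log2 ratio was -0.06, with a counting interval of -0.19 to 0.07 that includes 0, and -0.52 under TPM. SOD1 measured 4.48 times SOD2 in HuH6_WT and 9.47 times SOD2 in PIM3_KO. Principal transcripts of SOD2 run from 990 to 14266 bp, and the length correction gave 0.20 with the longest and -0.46 with the shortest, so it has no usable corrected value. SOD2 overlaps WTAP on the opposite strand by 19602 bp, and WTAP measured 48.2 and 43.6 FPKM. The extracellular dismutase SOD3 measured 2.26 and 1.37 FPKM.

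SELENOP (ENSG00000250722.5, chr5:42799880-42887392, minus strand) stood at 80.9 FPKM in HuH6_WT against 69.2 FPKM in PIM3_KO, a log2 ratio of -0.22 with a counting interval of -0.29 to -0.15. Under TPM it was -0.68. The sign was the same under the other settings, and none called it lower. Of its windows of 75 bases, 1175 of 1779 also occur, on either strand, in transcripts of CCDC152 or AC008945.1, which measured 0.0563 and 0.0144 FPKM and 0 in each library.

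**Figure D3:**
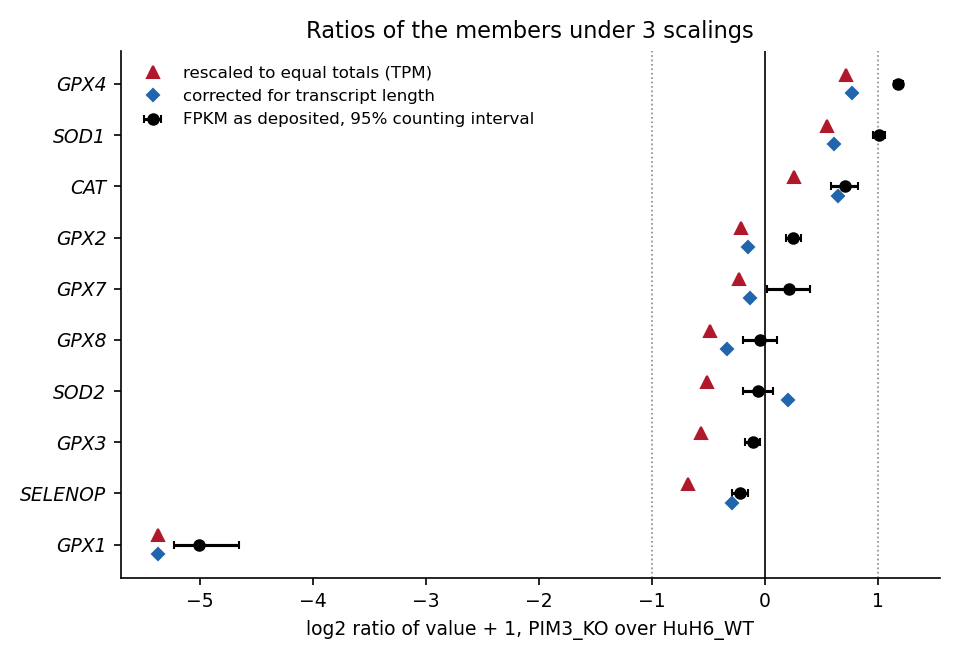
Log2 ratio of value + 1, PIM3_KO over HuH6_WT, for each gene. Circles use FPKM as deposited with the 95% counting interval, triangles TPM, and diamonds the length correction, which GPX3 lacks; dotted lines mark 2-fold. GPX1 lies near -5 under each, GPX4, SOD1 and CAT stay above 0, and GPX2 and GPX7 change sign under both, as does SOD2 after the length correction.

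The order of the levels was alike in both libraries except for GPX1 and CAT. In HuH6_WT it ran GPX4, SOD1, GPX2, GPX3, SELENOP, SOD2, GPX1, GPX8, CAT and GPX7. In PIM3_KO the first 6 places were the same, followed by CAT, GPX8, GPX7 and GPX1. Neighbours in this order had counting intervals that did not overlap, except CAT and GPX7 in HuH6_WT, at 16.1 to 18.2 and 13.4 to 16.2 FPKM. Without replicates, the spread between cultures behind this order is unknown.

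Scale and transcript length moved with the ratios. FPKM summed to 787250 in HuH6_WT and 1086210 in PIM3_KO, and TPM moved the median log2 ratio of all genes from 0.01 to -0.40. Under TPM 311 genes were called higher and 1652 lower, against 775 and 516 with FPKM. Of the 10 genes, 5 had positive ratios with FPKM and 3 with TPM. Shorter transcripts had higher ratios: the median was 0.49 over 1712 genes of at most 1200 bp, of which 21.3% were called higher, and -0.15 over 6274 genes above 2500 bp, of which 2.87% were. GPX4 (919 bp), SOD1 (966 bp), GPX2 (990 bp) and GPX1 (1151 bp) are all of the short kind. The part of length in the ratios of GPX4 and SOD1 was not tested beyond the correction given above.

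**Figure D4:**
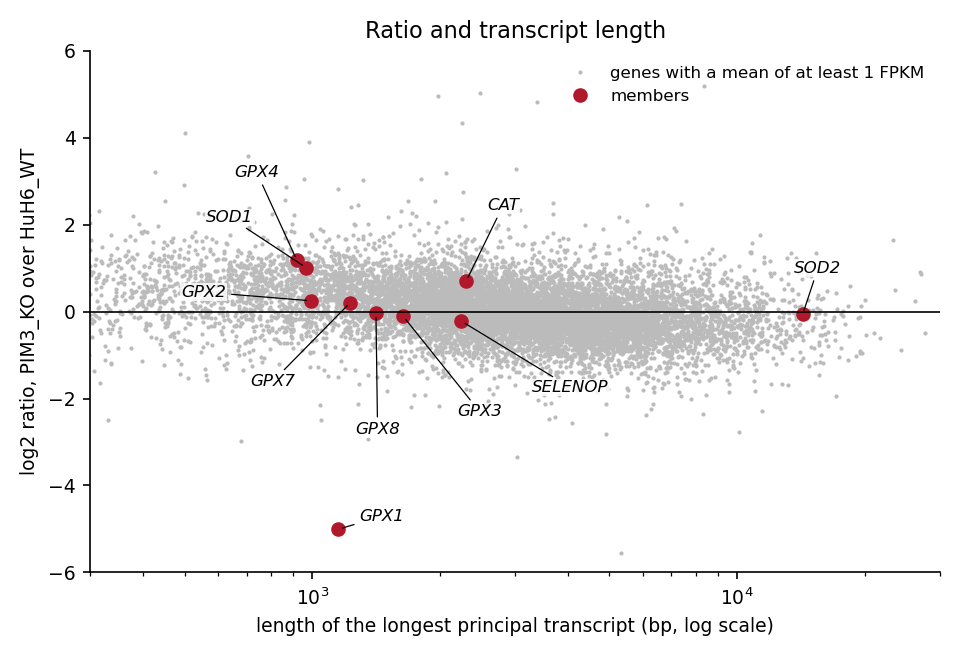
Log2 ratio of FPKM + 1, PIM3_KO over HuH6_WT, against the length of the longest principal transcript in bp on a log axis. Grey points are genes whose mean reached 1 FPKM and labelled red points are the 10 genes; GPX4 and SOD1 lie among short transcripts, whose median ratio was 0.49, while GPX1 lies far below.

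Lists of related genes were counted in the same way, with 150 distinct genes in 15 lists. Of the 114 with a row of their own and a mean of at least 1 FPKM, 7 were called higher and 1 lower, or 6.14% and 0.877%. The share called higher was near that of all genes, 6.89%, and that called lower was under 4.59%. The list median over these 114 genes was 0.15. Under TPM 2 of the 114 were called higher, TXNIP and NOX1, and 10 lower. Over all genes the counts under TPM were 311 higher and 1652 lower of 11382. The TPM counts of single lists below are to be set against these, not against the FPKM shares.

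Peroxiredoxins, thiol peroxidases that remove hydrogen peroxide without selenium, had positive ratios in 6 of 6 genes, or 5 of 6 under TPM, and 0 were called, with a median of 0.73. Over all genes tested, 49.0% of ratios were negative with FPKM and 73.9% under TPM. PRDX2 (305 and 607 FPKM) and PRDX4 (216 and 430 FPKM) lay just under the threshold at a log2 ratio of 0.99 each, as SOD1 lay just over it. PRDX6 measured 377 and 554 FPKM. PRDX1, the most abundant, measured 842 and 925 FPKM, and its ratio of 0.14 became -0.33 under TPM. The list's median under TPM was 0.27. After the length correction the median was 0.41, with PRDX2 at 0.59, PRDX4 at 0.60 and PRDX1 at -0.21.

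In the thioredoxin system, which recharges the peroxiredoxins, 7 of 12 genes were measured, 2 were called higher and 0 lower. TXNIP, the thioredoxin inhibitor, measured 3.07 and 12.3 FPKM, a log2 ratio of 1.71, and TXNDC17 measured 178 and 430 FPKM, a ratio of 1.26 that was 0.80 under TPM and so not called there. The selenoprotein TXNRD1, the cytosolic thioredoxin reductase, went the other way at 103 and 53.0 FPKM, a ratio of -0.94 that passed 2-fold under TPM at -1.40. TXN2, the mitochondrial thioredoxin, measured 98.9 and 121 FPKM, and its ratio of 0.29 was -0.17 under TPM. All 4 glutaredoxins, which use glutathione as electron donor, had positive ratios from 0.48 to 0.77 and 0 were called. Under TPM their median went from 0.51 to 0.04, with GLRX and GLRX5 at 0.02. GLRX2 measured 23.4 and 40.7 FPKM and GLRX3 275 and 398 FPKM, while GLRX measured 44.5 and 62.3 FPKM and GLRX5 97.8 and 137 FPKM.

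Genes of glutathione synthesis and recycling, which supply the substrate of the GPX enzymes, had a median of -0.04 and 0 of 10 were called, or 1 lower under TPM, GCLM at -1.08. GCLM and GCLC, the subunits of the rate-limiting ligase, measured 11.8 and 7.11 FPKM and 46.8 and 38.4 FPKM. OPLAH, which recycles oxoproline, measured 14.5 and 25.3 FPKM, and CHAC1, which degrades glutathione, 4.92 and 7.33 FPKM. Among 15 genes that supply NADPH, 11 had negative ratios, 0 were called (3 lower under TPM) and the median was -0.25. NADK, which makes NADP from NAD, measured 159 and 89.9 FPKM and PGD of the pentose phosphate pathway 462 and 296 FPKM. TALDO1 measured 332 and 641 FPKM and MTHFD1 46.6 and 60.2 FPKM.

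Most other selenoproteins lay within 2-fold. Of 13 measured, 1 was called higher and 0 lower, with a median of 0.25, or -0.20 under TPM. SELENOW, a small selenoprotein, measured 34.1 and 91.1 FPKM, a log2 ratio of 1.39. That ratio was 0.94 under TPM and 0.97 after the length correction, not called under either. SELENOM measured 20.8 and 40.8 FPKM. SELENOO measured 20.6 and 16.5 FPKM, and TXNRD1, given above, had the lowest ratio of the list. Of 11 measured genes for making selenocysteine and handling selenium, 1 was called higher and 0 lower. That gene was PSTK, the kinase that primes the selenocysteine tRNA, at 13.6 and 30.8 FPKM, a log2 ratio of 1.12 that fell short of 2-fold under TPM (0.68) and after the length correction (0.92). SEPHS2, the selenophosphate synthetase, measured 41.4 and 69.4 FPKM, TRIT1 19.9 and 13.3 FPKM and LRP2, an uptake receptor for selenoprotein P in the kidney, 1.71 and 0.868 FPKM.

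Sources and sites of peroxide differed in direction among their genes. Of 10 measured oxidases, 8 had positive ratios and 2 negative, with a median of 0.26. Under TPM 3 of the 10 were positive, and the median was -0.17. The 1 called, higher, was NOX1, a superoxide-forming NADPH oxidase, at 0.858 and 4.0 FPKM. Its partner CYBA measured 208 and 381 FPKM, while DUOX1 measured 5.36 and 2.95 FPKM (-0.69, or a lower call of -1.07 under TPM) and ERO1B 3.65 and 2.42 FPKM. Peroxisome assembly genes, which bring CAT into its organelle, had a median of -0.22 and 0 of 12 were called, or 1 lower under TPM. PEX16 measured 57.2 and 97.4 FPKM and PEX11G 4.29 and 5.73 FPKM, against PEX6 at 7.83 and 4.88 FPKM. Of 7 partners of GPX7 and GPX8 in oxidative folding, 0 were called, with PDIA4 at 179 and 305 FPKM and P4HB at 668 and 576 FPKM.

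Of 11 measured ferroptosis and iron genes, among which GPX4 acts, 0 were called higher and 1 lower, or 2 lower under TPM. The iron exporter gene SLC40A1 measured 7.33 and 2.60 FPKM, a log2 ratio of -1.21, and the transferrin receptor TFRC 66.6 and 43.9 FPKM, with -0.59, or -1.05 under TPM. GCH1, which makes the antioxidant cofactor tetrahydrobiopterin, measured 8.83 and 14.4 FPKM and the ferritin heavy chain FTH1 1031 and 1530.3 FPKM. Glutathione transferases with peroxidase activity had positive ratios in 6 of 6 genes, or in 2 of 6 under TPM, and 1 was called. That gene, GSTA1, measured 27.4 and 56.8 FPKM, its near copy GSTA2 37.4 and 46.5 FPKM, GSTK1 117 and 198 FPKM and MGST1 103 and 121 FPKM. The ratio of GSTA1, 1.02, was 0.57 under TPM and 0.63 after the length correction, not called under either. Reads of GSTA1 and GSTA2 can be split wrongly. Of 6 regulators around NRF2, the factor that drives many antioxidant genes, 0 were called, or 1 lower under TPM, MAFF at -1.10. KEAP1, which holds NRF2 down, measured 48.0 and 66.9 FPKM and CUL3 54.1 and 70.2 FPKM, against MAFF at 64.2 and 40.6 FPKM and BACH1 at 17.5 and 13.1 FPKM.

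**Figure D5:**
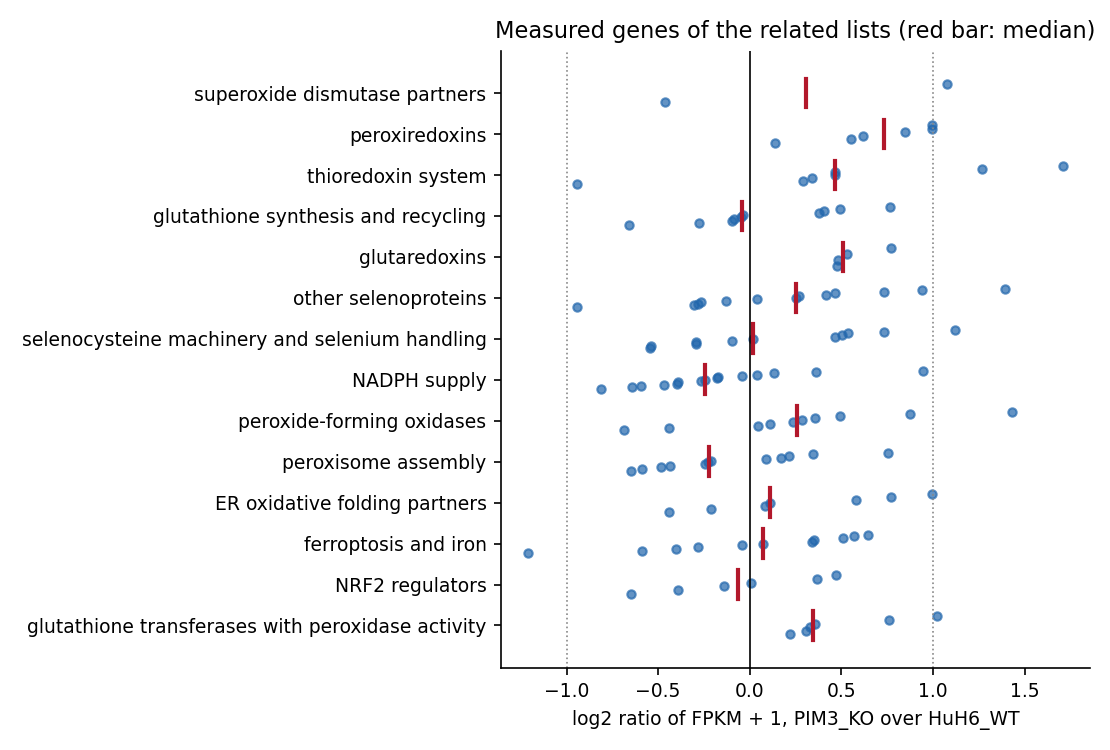
Log2 ratio of FPKM + 1, PIM3_KO over HuH6_WT, of each measured gene (points) in 14 of the 15 related lists, with the list median as a red bar and 2-fold marked by dotted lines. With FPKM, peroxiredoxins and glutaredoxins lie to the right of 0, genes of NADPH supply mostly to the left, and few genes pass 2-fold. PRDX1 was below 0 under TPM and after the length correction, which are not drawn here.

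Facts of the libraries bear on all of these values. The spacing of low values implied normalisation totals of about 28400000 reads in HuH6_WT and 22200000 in PIM3_KO. Of 8 hepatoblast markers 7 were measured, 4 of them with negative ratios, and the median was -0.01 (-0.47 under TPM). The 1 called was AFP, higher at 1.19 and 70.1 FPKM. GPC3 measured 694 and 607 FPKM, and DLK1 was listed at 0. Mature hepatocyte markers summed to 5586 and 14471 FPKM, most of it APOA1 at 5201 and 12109 FPKM. Of the 5 measured, 4 were called higher, against 6.89% of all genes tested. Under TPM 3 of the 5 were, against 311 of 11382 genes. Those 3 were ALB at 0.520 and 9.18 FPKM, TTR at 270 and 2232 FPKM and RBP4 at 0.805 and 13.8 FPKM. The ratio of APOA1, 1.22, was 0.75 under TPM, and APOB, at 113 and 106 FPKM, was not called. Below the filter, CYP3A4 measured 0.221 FPKM in HuH6_WT and was listed at 0 in PIM3_KO, and TAT measured 0.0752 and 0.360 FPKM. Markers of fibroblasts and stellate cells summed to 10.3 and 10.7 FPKM, of endothelium to 1.98 and 1.34 FPKM with CDH5 and KDR at 0, and of leukocytes to 3.97 and 7.52 FPKM with CD2 and MS4A1 at 0. Cholangiocyte markers summed to 724 and 1062 FPKM, most of it KRT19 at 711 and 1044 FPKM. Of 3 measured cholangiocyte markers the 1 called was CFTR, at 0.0559 and 4.75 FPKM, a log2 ratio of 2.44 (2.33 under TPM). KRT7 measured 0.716 FPKM in HuH6_WT and was listed at 0 in PIM3_KO. The part of these differences in the values of the 10 genes was not tested.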

How the data were processed

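Poly(A) RNA of 2 samples was sequenced, 1 library per group, as single-end reads of 75 bases from directional libraries, per the labels' protocols. The authors deposited FPKM values in 1 column per library. Per the submitters' processing notes the tools included Cufflinks 2.2.1, STAR 2.7.3a and bcl2fastq 2.18.0.12, with build GRCh38. Annotation release, strand setting and filters were not stated there.

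Only the 53139 symbols named in 1 row were counted, at a mean of at least 1 FPKM; for GPX3 the row of higher level was used, and 1736 joined loci were left out except where named. The ratio was log2 of FPKM + 1, which understates differences of low genes. No model was fitted and no p-value exists. Estimated reads used FPKM, the shortest principal GENCODE 29 transcript less 200 bp, and the value of 1 read read off low values of single-exon genes (96.4% and 96.5% of genes under 20 reads within 0.05 of a whole number). They are approximate for genes with several transcripts. Intervals are exact binomial (Clopper-Pearson) for ratios and exact Poisson for levels. The length correction subtracted a lowess trend (fraction 0.3, statsmodels 0.14.6) on the longest principal transcript and set the result back to the median. Code was tested on simulated data. Genes were named by rule: the 10 members, the 2 highest and 2 lowest ratios of each list, PIM3, and the 3 coding genes on either side of a member that differed at least 4-fold; 1 gene of these is not reported here. Overlapping genes, copies of GPX1 and the markers of other cells were named after their values were seen. Members and lists were chosen with earlier results of these data known.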

Additional observations from a re-analysis of the deposited data

How the results depend on the processing

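Under 7 other settings GPX1 was called lower each time, with log2 ratios from -6.62 to -3.13. The count of members called higher, 2 with the main setting, was 1 with a pseudocount of 5, 1 after centring on the median, 0 under TPM and 0 after the length correction. GPX4 ranged from 0.72 to 1.18, SOD1 from 0.55 to 1.02 and CAT from 0.26 to 0.73. Of 69 member values, 49 stayed within the counting interval of the main value, 20 moved out of it, and 5 changed sign: GPX2 and GPX7 under TPM and after the length correction, and SOD2 after the length correction. Over all genes, counts higher and lower were 775 and 516. They were 1031 and 812 with a pseudocount of 0.1, 399 and 172 with one of 5, and 311 and 1652 under TPM. A mean of at least 5 FPKM or no filter left the members' counts at 2 and 1, and could not have changed them. Each member has a mean above 5 FPKM, so its values under these settings equal the main value. Those values are among the 49. No paired analysis was possible because each group has 1 library. For the same reason no replicate could be left out, and depth bounds counting error alone.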
